A study of Mus musculus with 9 samples.

Results

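The subcortical maternal complex is an assembly of maternal proteins under the egg's surface, and the transcripts of 8 genes placed with it were followed here: Nlrp5, Ooep, Tle6, Khdc3, Padi6, Nlrp2, Nlrp4f and Zbed3. The genes were taken from a fixed list of symbols, with every probe set of the value table that names one of them alone. Each gene had 1 such probe set, which gave 8 of the table's 35557 probe sets and 8 of the 19938 genes with a probe set of their own, and no probe set named one of them together with another gene. All 8 had a log2 signal of at least 4 in all 9 arrays, so none entered the tests through 1 group alone, and all are among the 17324 genes tested.

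The RNA came from mouse oocytes at metaphase II, all given as strain C57BL/6, in 3 groups of 3 arrays: wild-type, Dgcr8 knockout and Dicer knockout. Ovulation was brought on in females of all groups with 7.5 IU of PMSG, a hormone that drives follicle growth, then 7.5 IU of hCG, which triggers ovulation, and eggs were taken from the oviduct 14 to 16 h after hCG (16 h in the source labels) and freed of cumulus cells with 0.3 mg/ml hyaluronidase. The alleles behind the knockouts, what the wild-type females carried, and how many eggs and females went into an array are not stated in the labels used here. Dgcr8 is needed to make most microRNAs, whereas Dicer makes microRNAs and also the endogenous small interfering RNAs of the oocyte. The arrays are called biological replicates in the labels, and nothing more says how they were separated. An array of pooled eggs gives a level relative to other transcripts, so fewer cells with a transcript and less of it per cell cannot be told apart.

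Eggs store the proteins and RNAs that carry the embryo through its first divisions, and the complex is one of the best known products of such maternal-effect genes. Nlrp5 (also called Mater), Ooep (Floped), Tle6 and Khdc3 (Filia) encode its core, and Padi6 encodes a protein of the cytoplasmic lattices, fibrous structures of the egg that depend on the complex. In mice, embryos of mothers without Nlrp5, Ooep, Tle6 or Padi6 stop dividing at the first cleavages, and embryos of mothers without Khdc3 show faults in chromosome segregation. Nlrp2 and Nlrp4f, like Nlrp5, are NLR proteins with leucine-rich repeats, and Zbed3 is a zinc finger protein also known as a binding partner of Axin in Wnt signalling.

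Start-site windows, which run from 250 bases before to 50 bases after an annotated transcript start, were read from RefSeq (build GRCm38.p6) for all 8 genes, 12 windows in all. They are shown for Khdc3, the 1 member that passed the test below, for Ooep, which encodes a protein with a KH-type fold as Khdc3 does, and for Padi6. Capitals mark matches, on either strand, to the E-box CANNTG, to the element TAATTG bound by the oocyte factor Nobox, to the TATA box TATAAA and to the GC box GGGCGG. The E-box is read by basic helix-loop-helix factors such as Figla, the regulator of the zona pellucida genes.

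Khdc3, chr9:73102148-73102447, plus strand: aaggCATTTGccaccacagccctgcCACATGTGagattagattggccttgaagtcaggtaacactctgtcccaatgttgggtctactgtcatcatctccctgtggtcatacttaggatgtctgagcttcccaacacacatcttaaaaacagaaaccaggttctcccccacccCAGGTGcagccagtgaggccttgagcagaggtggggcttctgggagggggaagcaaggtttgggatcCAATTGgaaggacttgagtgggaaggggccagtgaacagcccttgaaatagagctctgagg
Ooep, chr9:78378539-78378838, minus strand: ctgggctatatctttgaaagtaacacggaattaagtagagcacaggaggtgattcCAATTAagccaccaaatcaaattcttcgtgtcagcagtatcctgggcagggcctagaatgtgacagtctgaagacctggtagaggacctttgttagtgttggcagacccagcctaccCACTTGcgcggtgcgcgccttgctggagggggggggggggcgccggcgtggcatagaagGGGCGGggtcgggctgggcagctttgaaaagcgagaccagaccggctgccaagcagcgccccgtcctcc
Padi6, chr4:140742594-140742893, minus strand: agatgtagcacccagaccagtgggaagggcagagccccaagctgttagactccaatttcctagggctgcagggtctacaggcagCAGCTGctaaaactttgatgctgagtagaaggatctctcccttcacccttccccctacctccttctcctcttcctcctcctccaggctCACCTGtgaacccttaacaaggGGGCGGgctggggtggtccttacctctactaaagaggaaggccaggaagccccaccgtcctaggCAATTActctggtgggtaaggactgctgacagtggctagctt

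The Khdc3 window holds 5 E-box matches, of which CACATG and CATGTG overlap, and no match to the other motifs. The Ooep window holds 1 E-box, 1 TAATTG match, read as CAATTA on the strand shown, and 1 GC box, and the Padi6 window 2 E-boxes, 1 TAATTG match and 1 GC box. Over the 12 windows of the 8 genes, 11 held an E-box, 2 TAATTG, 2 TATAAA and 4 the GC box. Among all 32851 windows of this length in the table, 72.3% held an E-box, with a mean of 1.39 matches, 8% held TAATTG, 13.6% TATAAA and 35.7% the GC box. The 1 window without an E-box belongs to Nlrp2.

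The labels were first set against the arrays. Dgcr8 lay between 5.47 and 5.98 (log2 signal) in the Dgcr8 knockout arrays against 8.85 to 9.05 in wild type, and Dicer1 between 10.57 and 10.82 in the Dicer knockout arrays against 11.66 to 11.67. In the Dicer knockout arrays Dgcr8 lay between 8.28 and 8.72, a log2 change of -0.50 against wild type that did not pass (limma adjusted p 0.0644). Of 14 listed symbols of oocyte markers 13 were measured, all above the filter, and H1f8 and H1foo in that list name the same gene. The 13 had a mean log2 signal of 10.96 to 11.07 in wild-type, 10.91 to 11.08 in Dgcr8 knockout and 11.09 to 11.28 in Dicer knockout arrays. The 18 measured markers of cumulus and granulosa cells had means of 5.54 to 5.61, 5.53 to 5.60 and 5.53 to 5.59. Single genes of this list had means over the arrays from 3.83 to 9.66. Of the 17 tested, 1 was called in the Dicer knockout, Gata4, as higher (log2 change 0.59, limma adjusted p 0.0140). Nr5a2, at 9.80 in wild type, went the other way and did not pass (log2 change -0.41, limma adjusted p 0.0671). The median log2 change of the list without Dicer was -0.047. The 7 measured oviduct markers had means of 6.06 to 6.10, 6.00 to 6.25 and 5.93 to 6.06, and 1 of the 7, the smooth muscle gene Myh11, was called lower without Dicer (log2 change -0.46, limma adjusted p 0.0057). The 4 measured blood and immune markers had means of 5.25 to 5.49, 5.36 to 5.45 and 5.37 to 6.21, and the highest of these was in Dicer knockout replicate 3, the array of its group with the lowest Khdc3 signal; 1 of these 4, the macrophage gene Cd68, was called higher without Dicer (log2 change 0.96, limma adjusted p 0.0110). The part of these markers in the results was not tested. Among the oocyte markers Zp2, Nobox and Ddx4 were called higher without Dicer, 3 of the 13 tested, and none was called lower. Over all genes tested, 4.87% were called higher and 6.47% lower without Dicer, the background for the calls in each of these marker lists.

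Loss of Dgcr8 was not seen to alter the transcripts of the complex. None of the 8 genes passed the test against wild type, at an adjusted or an unadjusted p under 0.05, and in none did the 3 arrays of one group all lie above those of the other; over all genes tested, 0.0231% passed with adjustment (0.0173% higher, 0.00577% lower), 2.64% passed without, and 6.54% had groups that did not overlap, 3.52% with the knockout higher. The median log2 change of the 8 genes was 0.0045, beside -0.0029 over all genes tested. For 6 of the 8 genes the 95% interval stayed between -0.25 and 0.25 (log2). The exceptions were Nlrp2, with -0.30 to 0.35, and Khdc3, with -0.98 to 0.40, so a change of up to about that size cannot be told from none in these arrays. The limma adjusted p of each of the 8 genes was 1 in this comparison.

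In eggs without Dicer, Khdc3 was the 1 member called, and it was higher: 1 of 8 genes passed the test, where 11.3% of all genes did in either direction and 4.87% did so as higher. A single call among 8 genes is a share near that background, so the count is not a result about the complex as a whole. The 7 other members did not pass, with log2 changes from -0.050 in Ooep to 0.39 in Nlrp2. Only in Khdc3 did all 3 Dicer knockout arrays lie above all 3 of wild type, and 26.2% of all genes had groups that did not overlap, 10.0% with the Dicer knockout higher. The median log2 change of the members was 0.044 and that of all genes -0.027.

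**Figure D1:**
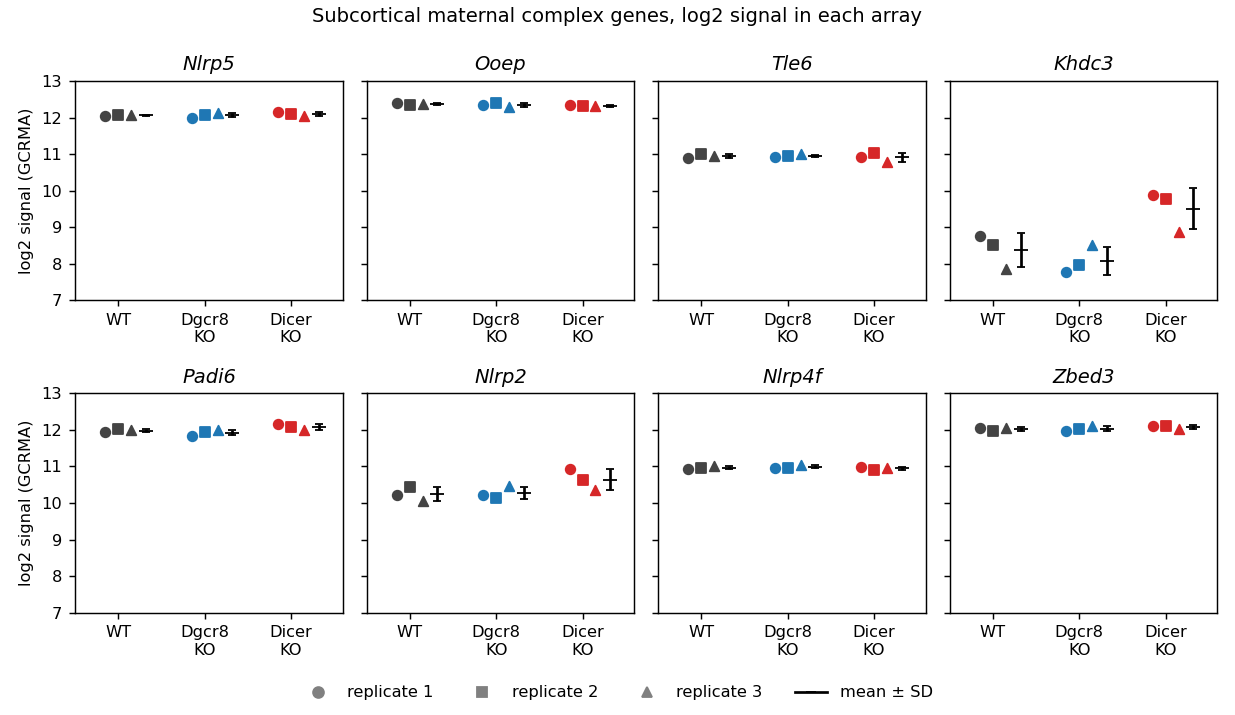
Log2 signal of the 8 genes in each array; panels share 1 vertical axis from 7 to 13, colours are genotypes, marker shapes are replicate numbers, and the bar at the right of each group is the mean ± SD of 3 arrays. In 6 genes all 9 arrays lie within 0.31 of each other, Nlrp2 spans 0.85 and Khdc3 spans 2.12, with its 3 Dicer knockout arrays on top.

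Nlrp5, one of the core genes, had a log2 signal of 12.06, 12.08 and 12.06 in the wild-type arrays, 12.00, 12.08 and 12.11 in the Dgcr8 knockout arrays, and 12.15, 12.11 and 12.05 in the Dicer knockout arrays. The groups overlap, and the change without Dicer was 0.038 (log2), with a 95% interval of -0.046 to 0.12. Nlrp4f stood at 10.92, 10.97 and 11.00 in wild type, 10.97, 10.96 and 11.04 without Dgcr8, and 10.98, 10.89 and 10.97 without Dicer. Its 9 values lie within 0.15 of each other, and the interval of the change without Dicer was -0.11 to 0.082.

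Nlrp2, a maternal-effect gene also linked to imprinted methylation, was the most variable of the 3. Its log2 signal was 10.23, 10.44 and 10.07 in wild type, 10.21, 10.14 and 10.47 without Dgcr8, and 10.92, 10.62 and 10.35 without Dicer. Dicer knockout replicates 1 and 2 lie above all other arrays and replicate 3 lies among them. The log2 change without Dicer, 0.39 ± 0.15 (SE), had an unadjusted limma p of 0.0234. Of all genes tested, 23.7% had an unadjusted p under 0.05 in that comparison. The limma adjusted p of Nlrp2 was 0.129, and so it did not pass. It passed only without Dicer knockout replicate 3 (change 0.53, limma adjusted p 0.0403), within a range of 0.0403 to 0.363 as each array was left out.

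Of the members that encode proteins with a KH-type fold, related to RNA-binding domains, Ooep and Khdc3 had different values. Ooep stood at 12.41, 12.35 and 12.37 in wild type, 12.35, 12.41 and 12.30 without Dgcr8, and 12.35, 12.31 and 12.31 without Dicer. These 9 values span 0.11, the narrowest range of the 8 genes, and the change without Dicer was -0.050 ± 0.033 (SE; limma adjusted p 0.424). After quantile normalization of the deposited values Ooep was called lower in the Dicer knockout, by 0.12 on the log2 scale against wild type (log2 change -0.12, limma adjusted p 0.0230), within a range of adjusted p of 0.0230 to 0.726 over all settings tried.

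Khdc3 stood at 8.76, 8.51 and 7.85 in wild type, at 7.77, 7.95 and 8.52 without Dgcr8, and at 9.89, 9.77 and 8.87 without Dicer. Replicates 1 and 2 of the Dicer knockout lie more than 1 unit above every other genotype's array, whereas replicate 3 lies 0.11 above the highest wild-type array. The group means were 8.37 ± 0.47, 8.08 ± 0.39 and 9.51 ± 0.56 (SD, n = 3), and the log2 change without Dicer was 1.14 ± 0.31 (SE), or 2.20-fold, with a 95% interval of 0.45 to 1.83 and a limma adjusted p of 0.0422. The spread within groups, 0.39 to 0.56, was the widest of the 8 genes; the other 7 had group SDs from 0.014 to 0.28. An exact permutation test of 3 arrays against 3 cannot give a two-sided p under 0.1.

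The Khdc3 call against wild type was close to the threshold. With a wild-type array left out, it was lost for replicate 2 (limma adjusted p 0.0843) and 3 (0.151). With a Dgcr8 knockout array left out it was lost for replicate 1 (0.0501) and 2 (0.0661), and with a Dicer knockout array for replicate 1 (0.146) and 2 (0.114). It was kept without the other 3 arrays, with a lowest value of 0.0118. It was also lost after centring each array on its median (0.0641), with plain eBayes settings (0.0555), with only the 2 groups in the fit (0.0841) and when every probe set was tested on its own (0.0706). The log2 change itself stayed between 0.88 and 1.46 as each array was left out.

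Padi6 stood at 11.93, 12.02 and 11.98 in wild type, 11.85, 11.94 and 11.99 without Dgcr8, and 12.15, 12.09 and 12.01 without Dicer. Against wild type the groups overlap, and the change of 0.11 ± 0.048 (log2, SE) had a limma adjusted p of 0.223. Tle6, a core gene of the Groucho family, stood at 10.89, 11.00 and 10.94 in wild type, 10.93, 10.94 and 10.99 without Dgcr8, and 10.93, 11.02 and 10.78 without Dicer. Its lowest and its highest value are both in Dicer knockout arrays, and the interval of the change was -0.17 to 0.11. Zbed3 stood at 12.05, 11.97 and 12.06 in wild type, 11.98, 12.02 and 12.10 without Dgcr8, and 12.10, 12.11 and 12.01 without Dicer, with overlapping groups and an interval of -0.045 to 0.15. Nlrp5, Ooep, Padi6 and Zbed3 all lie at a log2 signal near 12 in a table whose highest value is 13.3, and whether the signal still scales with the amount of RNA at that brightness was not tested.

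**Figure D2:**
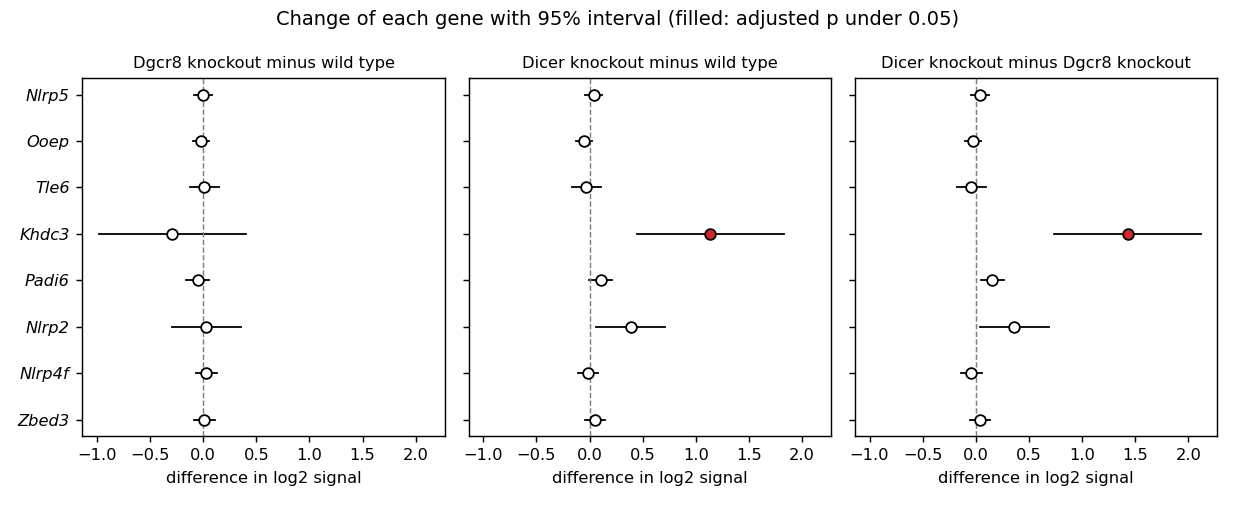
Difference in log2 signal for each of the 8 genes in the 3 comparisons, with its 95% interval; filled points passed at an adjusted p under 0.05. Khdc3 is filled in both comparisons that hold the Dicer knockout (1.14 and 1.43), and the intervals of Nlrp5, Ooep, Tle6, Nlrp4f and Zbed3 cross 0 in all 3 panels.

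Set directly against each other, the 2 knockouts differed in 1 of the 8 genes, against 13.4% of all genes tested in either direction and 5.48% as higher and 7.92% as lower in the Dicer knockout. The 3 comparisons share arrays pairwise (wild type in the first 2, the Dicer knockout in the last 2, the Dgcr8 knockout in the first and last), so they are not separate evidence. Khdc3 was higher in the Dicer knockout by 1.43 ± 0.31 (log2, SE), a 2.69-fold difference with a limma adjusted p of 0.0136. That call was lost when replicate 1 (0.0550) or 2 (0.0516) of the Dgcr8 group was left out, or replicate 1 of the Dicer group (0.0561), with a lowest value of 0.0046 as each array was left out. The groups did not overlap in Khdc3 and in Padi6, that is 2 of 8, beside 26.1% of all genes, 10.2% with the Dicer knockout higher. Padi6 differed by 0.16 ± 0.048 (log2, SE; limma adjusted p 0.0621) and was called with the floor on signal at 6 (0.0373), with array weights (0.0402) and without Dicer knockout replicate 3 (0.0327), within 0.0327 to 0.199 as each array was left out. Nlrp2 differed by 0.36 (adjusted p 0.145) and was called without Dicer knockout replicate 3 (0.0456). After quantile normalization Ooep was called lower here too (log2 change -0.11, adjusted p 0.0248).

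The spread of Khdc3 within groups was set beside that of 52 genes of cytosolic ribosomal proteins, a list chosen after the data were seen. As deviations from the wild-type mean, Khdc3 was at 0.38, 0.14 and -0.52 in wild-type replicates 1, 2 and 3, and the median of the ribosomal genes at 0.17, 0.010 and -0.16. In the Dgcr8 knockout Khdc3 was at -0.60, -0.42 and 0.15 and the ribosomal median at -0.26, -0.15 and 0.0031. In the Dicer knockout Khdc3 was at 1.52, 1.40 and 0.49 and the ribosomal median at 0.79, 0.32 and 0.12. Within each genotype the arrays fall in the same order by both measures. Without Dicer 13 of the 52 ribosomal genes were called higher and none lower, beside 4.87% and 6.47% of all genes, with a median log2 change of 0.42. The part of this shared order in the Khdc3 result was not tested.

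**Figure D3:**
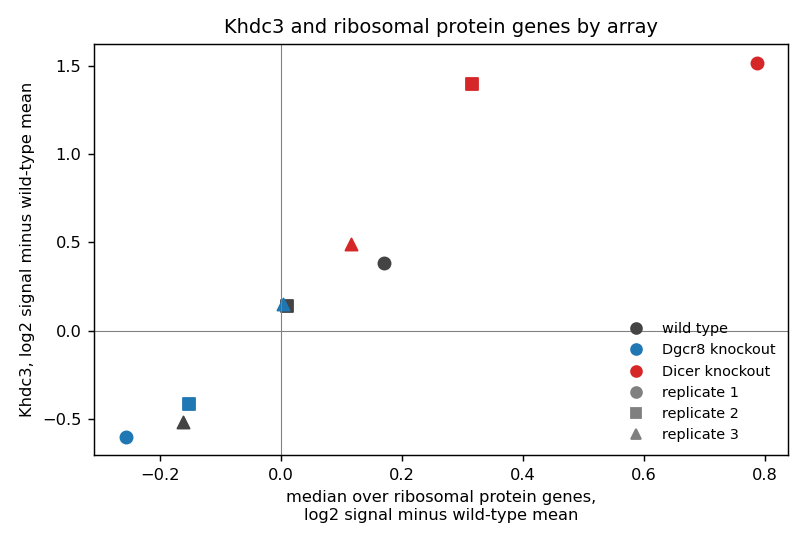
Khdc3 against the median of 52 ribosomal protein genes, each as log2 signal minus its wild-type mean, 1 point per array; colours are genotypes and marker shapes replicate numbers. Arrays high in one are high in the other, from Dgcr8 knockout replicate 1 (-0.26, -0.60) to Dicer knockout replicate 1 (0.79, 1.52).

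The genes whose signal followed Khdc3 most closely over the 9 arrays were taken by Pearson r. Among 7215 tested genes with a range of at least 0.5 (log2), the 3 with the highest Pearson r were Psmb5, a catalytic subunit of the proteasome (r = 0.993), Ndufb9, a subunit of respiratory complex I (0.990), and Rpl38, a ribosomal protein (0.987). With each genotype's mean taken off, r was 0.974, 0.981 and 0.959. These are descriptions over 9 arrays that share genotypes, and the genes were picked for their r. Their own log2 changes without Dicer were 1.09, 1.13 and 1.44, beside 1.14 in Khdc3.

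Relatives of Khdc3 and Ooep were then read from a list of family members of the non-NLR genes. The list held 17 symbols, of which Aes and Tle5 name the same gene, and 12 were tested. Of these, 2 were called higher without Dicer and none lower, beside 4.87% of all genes called higher and 6.47% lower, with no call without Dgcr8. The median log2 change of the list without Dicer was -0.0082, beside -0.027 over all genes. Both belong with the KH-type genes. Dppa5a, expressed in pluripotent and germ cells, stood at 10.59, 10.39 and 9.49 in wild type, 9.09, 9.97 and 10.16 without Dgcr8, and 12.13, 12.08 and 11.93 without Dicer. The Dicer knockout arrays lie well apart from the other 6, and the log2 change was 1.89 ± 0.31 (SE; limma adjusted p 0.0032).

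Dppa5a is the next tested gene to Ooep in the reference order. Its deviations from the genotype mean were 0.44, 0.23 and -0.67 in wild type and -0.65, 0.23 and 0.42 in the Dgcr8 knockout. In the Dicer knockout they were smaller, at 0.087, 0.030 and -0.12. Within each genotype the order of arrays was the same as in Khdc3. Dppa5a lay between 11.93 and 12.13 in the Dicer knockout arrays, and whether the signal still scales with the amount of RNA there was not tested. Khdc1a stood at 10.57, 10.59 and 10.66 in wild type, 10.62, 10.56 and 10.64 without Dgcr8, and 11.40, 11.27 and 11.25 without Dicer. Its log2 change was 0.70 ± 0.051 (SE; limma adjusted p 2.03e-05) with no overlap of groups. Khdc1a has close copies, Khdc1b and Khdc1c, and the 2 probe sets that name all 3 had mean log2 signals of 11.73 and 11.98 in wild type and 11.92 and 12.08 without Dicer. The calls of Dppa5a and Khdc1a held without each array in turn. None of the measured Padi and Tle relatives was called.

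**Figure D4:**
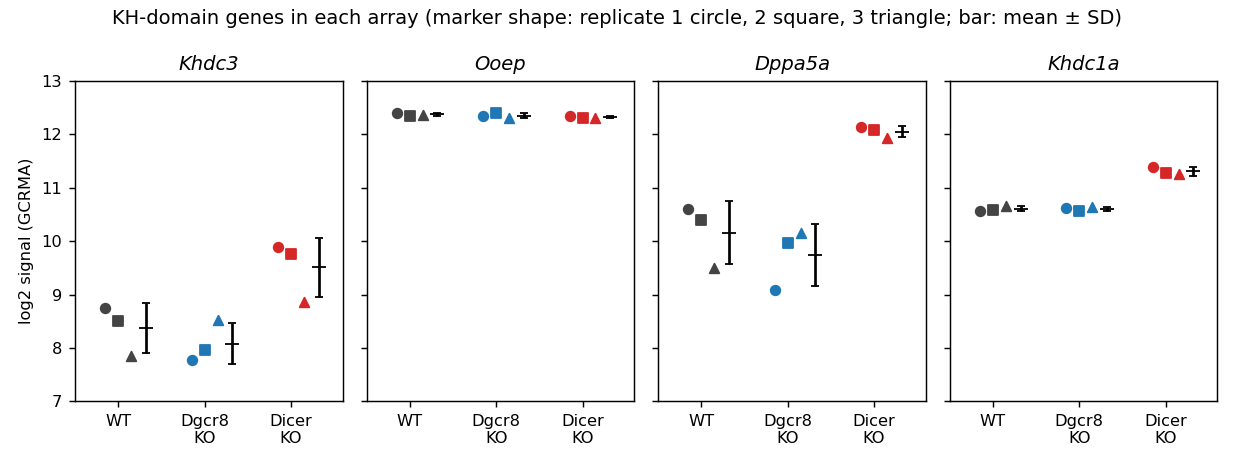
Log2 signal of the KH-type genes Khdc3, Ooep, Dppa5a and Khdc1a in each array, with mean ± SD of 3 arrays at the right of each group; colours are genotypes and marker shapes replicate numbers. Dicer knockout arrays lie above all others in Khdc3, Dppa5a and Khdc1a, whereas the 9 Ooep values span 0.11.

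Of the other NLR genes 21 were listed, 19 were on the array and 15 were tested. None was called without Dgcr8, and without Dicer 1 was called higher and 2 lower, that is 3 of 15 beside 11.3% of all genes called in either direction, with a median log2 change of -0.053 beside -0.027 over all genes. Nlrp4c stood at 7.63, 7.59 and 7.41 in wild type, 7.83, 7.56 and 7.98 without Dgcr8, and 8.39, 8.27 and 8.01 without Dicer, a log2 change of 0.68 ± 0.13 (SE; limma adjusted p 0.0092). Nlrp9c fell by 0.25 and Nlrp9a by 0.19 (log2; limma adjusted p 0.0099 and 0.0153), and the 3 Dicer knockout arrays lay below all others in both. The Nlrp9a call was lost without wild-type replicates 2 (0.0695) or 3 (0.0543) and with plain eBayes settings (0.0802). Nlrp4 and Nlrp9 genes are close copies of each other, so a probe set, that of the member Nlrp4f included, may also read a relative.

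Known partners and pathways of the members were read from a further list. Of 26 genes listed for 14-3-3 proteins, cofilin, Axin and Wnt signalling, protein kinase A and DNA repair, 24 were tested. Without Dicer 4 of the 24 were called lower and none higher. Over all genes 6.47% were called lower, 4.87% higher and 11.3% in either direction. The median log2 change of the list without Dicer was -0.063, beside -0.027 over all genes. No gene of the list was called without Dgcr8. Axin2, a scaffold that limits beta-catenin, was lower by 0.36 ± 0.060 (log2 change -0.36, SE; limma adjusted p 0.0039), from 10.31, 10.29 and 10.43 in wild type to 10.05, 9.90 and 10.00. Apc, of the same destruction complex, changed by -0.31, Ctnnb1, which encodes beta-catenin, by -0.20, and Ywhab, a 14-3-3 protein, by -0.31 (log2), with limma adjusted p of 0.0344, 0.0453 and 0.0427. The Axin2 call held without each array. The Apc call was lost without any 1 of 6 arrays (0.0518 to 0.133), Ctnnb1 without any 1 of 8 (0.0574 to 0.153) and Ywhab without any 1 of 6 (0.0542 to 0.157), in each case most clearly without wild-type replicate 3. Among 9 other settings of filter, scaling, probe sets or fit, Axin2 kept its call in all. There Apc lost it in 3 (limma adjusted p 0.0559 to 0.0777), Ctnnb1 in 4 (0.0525 to 0.114) and Ywhab in 4 (0.0501 to 0.0811).

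A list drawn up as other maternal-effect genes also showed calls on both sides. The list held 26 symbols, among them the older names Mater (the member Nlrp5) and Stella (Dppa3, also listed), and 23 were tested. Of these, 2 were called higher and 2 lower without Dicer, that is 4 of 23 beside 11.3% of all genes called in either direction (median log2 change 0.0055 beside -0.027 over all genes), with none called without Dgcr8. Kdm1b, a histone demethylase needed for maternal imprints, rose by 0.53 ± 0.12 and Gtsf1l, a relative of the piRNA factor Gtsf1, by 0.95 ± 0.24 (log2, SE; limma adjusted p 0.0211 and 0.0282). Gtsf1l had a low signal, at 5.01 ± 0.39 in wild type and 5.96 ± 0.45 without Dicer (SD, n = 3), and left the fit with the floor on signal at 6. Whether Gtsf1l has a maternal effect was not tested. The zinc finger gene Bnc1 changed by -0.35 and the DNA methyltransferase Dnmt3a by -0.22 (log2; limma adjusted p 0.0394 and 0.0440). Kdm1b and Gtsf1l each lost the call without 4 of the 9 arrays (0.0550 to 0.0842 and 0.0659 to 0.104), and Bnc1 and Dnmt3a each without 8 (0.0565 to 0.150 and 0.0541 to 0.163). In the other settings, Kdm1b lost it in 1 of 9 (limma adjusted p 0.0503) and Gtsf1l in 1 of 8 (0.0795). Bnc1 and Dnmt3a each lost it there in 4 of 9 (0.0613 to 0.0979 and 0.0538 to 0.0809).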

How the data were processed

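Levels were read from 9 arrays of mouse metaphase II oocytes. The deposited values are log2 signals, 1 per probe set and array, made with GCRMA per the submitters' processing notes (background correction with probe sequence, normalization between arrays, summary per probe set; no version is stated there). Values ran from 1.05 to 13.3; no further normalization was applied. They are relative between arrays, so a change common to every transcript would not show, and the number of arrays limits the precision.

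Probe sets were named from the platform annotation and Entrez identifiers (reference assembly GRCm38.p6). Each gene was represented by its probe set with the highest mean, and genes with a log2 signal of at least 4 in at least 3 arrays were tested. All 9 arrays entered 1 fit in limma 3.58.1 (R 4.3.3, statmod 1.5.0; lmFit and eBayes, with trend and robust both on), two-sided, without covariates. A gene was called if its p, adjusted over the 17324 genes by Benjamini-Hochberg, was under 0.05. The fit was checked on simulated data. Alternatives changed the filter, scaling, probe set choice, eBayes settings, arrays in the fit, weights and a block on the replicate number.

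All 8 genes are described; from each list, up to 4 called genes by adjusted p are named, and for a called member the 3 genes of highest r. The members and lists were chosen with earlier results of these data known, and the ribosomal list and the genes next to members after their values were seen.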

Additional observations from a re-analysis of the deposited data

How the results depend on the processing

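Of 456 refits of single members, none of the 20 that turned sign was called, and none exceeded 0.070 (log2) in size. In Dicer knockout against wild type, members called were 2 after quantile normalization (Khdc3 higher, Ooep lower) and 0 after median centring, with plain eBayes, with only the 2 groups, with all probe sets and with the replicate block; they ranged from 0 to 2 as each array was left out. Between knockouts they were 2 with the floor at 6, with quantile normalization and with array weights, and ranged from 0 to 3; against wild type without Dgcr8 they were 0 in every setting tried. The members' median log2 change was -0.024 after quantile normalization against wild type and -0.026 against the Dgcr8 knockout, from 0.044 and 0.040; the causes were not tested. Genes called over the whole table were 2 with only the 2 groups in Dgcr8 knockout against wild type and 2 to 4 as arrays were left out, 1238 (without wild-type replicate 3) to 1966 in Dicer knockout against wild type, and 1515 (without Dgcr8 knockout replicate 1) to 2253 between knockouts. Leaving out an array also gives a smaller fit.

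Deviations from the group mean correlated at r of -0.24 to 0.11 between same-numbered arrays of different genotypes, and at -0.16 to 0.25 between differently numbered ones. Whether same-numbered arrays shared a batch cannot be told from these values. With the replicate block 1797 genes were called in the Dicer knockout, beside 1964, and Khdc3 had a limma adjusted p of 0.0550. Signs turned as follows, all log2. Against wild type without Dgcr8, Nlrp5 was 0.0090 after median centring, and Nlrp2 -0.023 and Zbed3 -0.0033 with array weights. After quantile normalization Nlrp5 was -0.032 and Zbed3 -0.016 in Dicer knockout against wild type, and -0.026 and -0.027 between knockouts. As arrays were left out, the Dgcr8 knockout changes ranged from -0.028 to 0.031 in Nlrp5, -0.050 to 0.0037 in Ooep, -0.016 to 0.040 in Tle6, -0.070 to 0.12 in Nlrp2 and -0.022 to 0.038 in Zbed3; the Dicer knockout changes from -0.087 to 0.035 in Tle6 and -0.038 to 0.011 in Nlrp4f; and Tle6 between knockouts from -0.10 to 0.023.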

Other observations

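The tested genes next to the 8 members in the reference order (assembly GRCm38.p6), looked up after the members' values were seen, gave 16 neighbours, of which 3 were called higher and none lower in eggs without Dicer, beside 4.87% of all genes called higher. They were Dppa5a beside Ooep, given above, Gm5065 beside Nlrp2 and Rsl24d1, a gene of ribosome assembly, beside Khdc3. Gm5065 had a mean log2 signal of 10.45 ± 0.10 in wild-type and 11.31 ± 0.070 in Dicer knockout arrays (SD, n = 3), a change of 0.86 ± 0.060 (SE; limma adjusted p 1.43e-05). Rsl24d1 went from 10.07 ± 0.15 to 10.40 ± 0.015 (SD, n = 3), a change of 0.33 ± 0.070 (log2, SE; limma adjusted p 0.0131). Rab27a, on the other side of Khdc3, was at 10.29 and 10.31 and was not called (adjusted p 0.880). None of the 16 was called in eggs without Dgcr8.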
